A study of Mus musculus with 16 samples.

Results

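Malat1, Neat1, Meg3, Miat, Kcnq1ot1, Snhg11, and Rian are long noncoding RNAs (lncRNAs), transcripts that do not serve mainly as templates for protein. They were taken by name from a count table of bulk RNA-Seq. The 7 lncRNAs were 7 of 24421 rows, and all 7 were among the 14565 genes with enough counts to be tested. The libraries came from CD11b+ cells of female C57BL/6J mice that started their diets when newly weaned, with 1 library per mouse. CON mice (4 libraries) ate a standard chow, and MAL mice (5 libraries) ate an isocaloric diet low in protein and fat. MAL-BG mice (7 libraries) ate the same low diet and were also given E. coli and Bacteroidales by gavage. The diets lasted about 1 month, and the gavages were given within a few days of that time. Per the methods of the study, mice outside the MAL-BG group had gavages of PBS, and no group had the bacteria without the diet, so an effect of the bacteria alone cannot be told apart from one that needs the diet. CD11b is a surface protein of microglia, the resident macrophages of the brain, and also of neutrophils and monocytes. It was captured on magnetic beads from cortical tissue per the labels and from whole cerebra per the methods. Libraries are named by group and by the running number of their column, which matches no sample title.

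Malat1 and Neat1 lie side by side in the genome and stay in the nucleus, Malat1 in nuclear speckles, which are rich in splicing factors, and Neat1 as the scaffold of paraspeckles. Meg3 and Rian are read from the maternal copy of the imprinted Dlk1-Dio3 domain, and Kcnq1ot1 is read from the paternal copy of another imprinted domain and silences neighbouring genes on that copy. Miat, also called Gomafu, and Snhg11, a host gene of small nucleolar RNAs, are known as lncRNAs of neurons, and Meg3 and Rian are also abundant in neurons.

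The table held 10312703 to 13461574 counts per CON library, 10864121 to 12819982 per MAL library, and 14191791 to 18705202 per MAL-BG library. Levels are given as CPM, which scales each count to the TMM-adjusted size of its library. Microglia markers such as Cx3cr1 and Trem2 were abundant in every library, with a summed level of 20704 to 33163 CPM in CON, 21158 to 35870 CPM in MAL, and 43153 to 60157 CPM in MAL-BG for 16 markers. The 28 neuron markers summed to 243 to 987 CPM in CON, 289 to 802 CPM in MAL, and 99.4 to 212 CPM in MAL-BG, so neuronal RNA was present at a low level in all groups and lowest in MAL-BG. In bulk samples fewer cells of a type and less RNA per cell cannot be told apart.

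The 7 lncRNAs spanned a wide range. Malat1 had the 6th highest mean CPM of the 14565 genes and Neat1 ranked 117th, while Meg3 ranked 3511th, Kcnq1ot1 3583rd, Rian 10422nd, Snhg11 11346th, and Miat 12366th. Per kilobase of annotated exon, the CON level was 844 ± 142 CPM for Malat1, 50.8 ± 12.2 CPM for Neat1, and 5.81 ± 2.94 CPM for Meg3 (SD, n = 4). The other 4 were at 0.935 ± 0.532 CPM per kilobase for Snhg11, 0.754 ± 0.234 for Kcnq1ot1, 0.695 ± 0.333 for Rian, and 0.525 ± 0.458 for Miat, and neighbours in this lower order did not differ beyond their spread. These per-length levels use all annotated exons, and a locus read mainly as a shorter isoform would have a higher level than given here.

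Against CON, 5 of the 7 were differentially expressed genes (DEGs) in MAL-BG, and all 5 were lower: Neat1, Meg3, Miat, Snhg11, and Rian. Against MAL, 4 of the 7 were lower, Neat1, Miat, Snhg11, and Rian. Genes counted as DEGs where edgeR's quasi-likelihood test gave p under 0.05 after adjustment and where log2 levels differed by more than 0.58 in either direction. By this rule 33.1% of all genes tested were DEGs against CON, 21.7% lower and 11.4% higher, and 30.4% were DEGs against MAL, 20.2% lower and 10.2% higher. This split turned with the scaling: by mean log2 CPM, 3298 genes were higher and 2403 lower against CON, and 3120 were higher and 2229 lower against MAL, where TMM gave 1659 and 3161, and 1479 and 2944. The median log2 fold change of the 7 was -1.73 against CON and -1.26 against MAL, beside -0.04 and -0.03 over all genes. Both comparisons use the same 7 MAL-BG libraries. None of the 7 was a DEG between MAL and CON, where 0% of all genes were called by edgeR and by DESeq2 and 212 and 241 genes had an unadjusted p under 0.05.

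**Figure D1:**
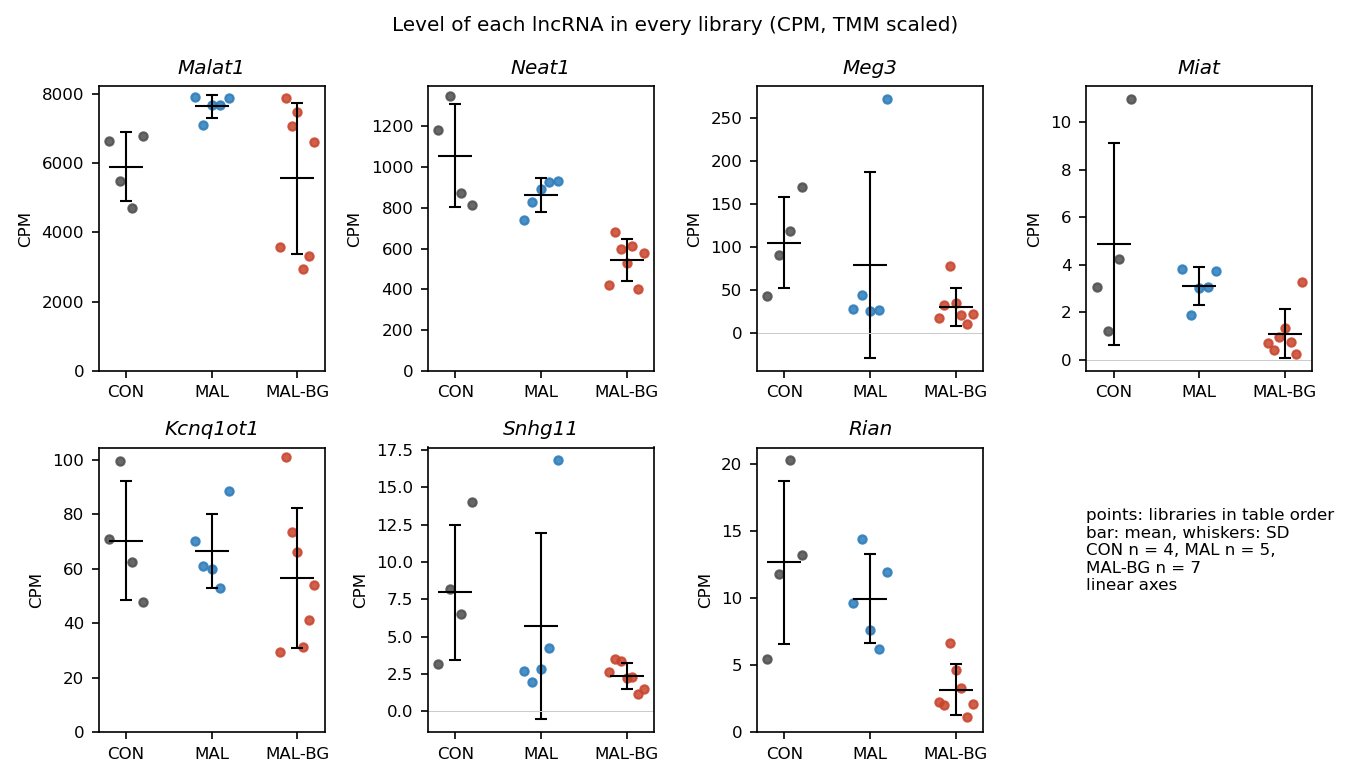
CPM of each lncRNA in every library on linear axes, by group, with the mean and SD (CON n = 4, MAL n = 5, MAL-BG n = 7). The 7 MAL-BG libraries lie below all others for Neat1, while for Malat1 they split between 2937 to 3589 CPM and 6606 to 7887 CPM, and 1 MAL library stands apart for Meg3 (272 CPM) and for Snhg11 (16.8 CPM).

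**Figure D2:**
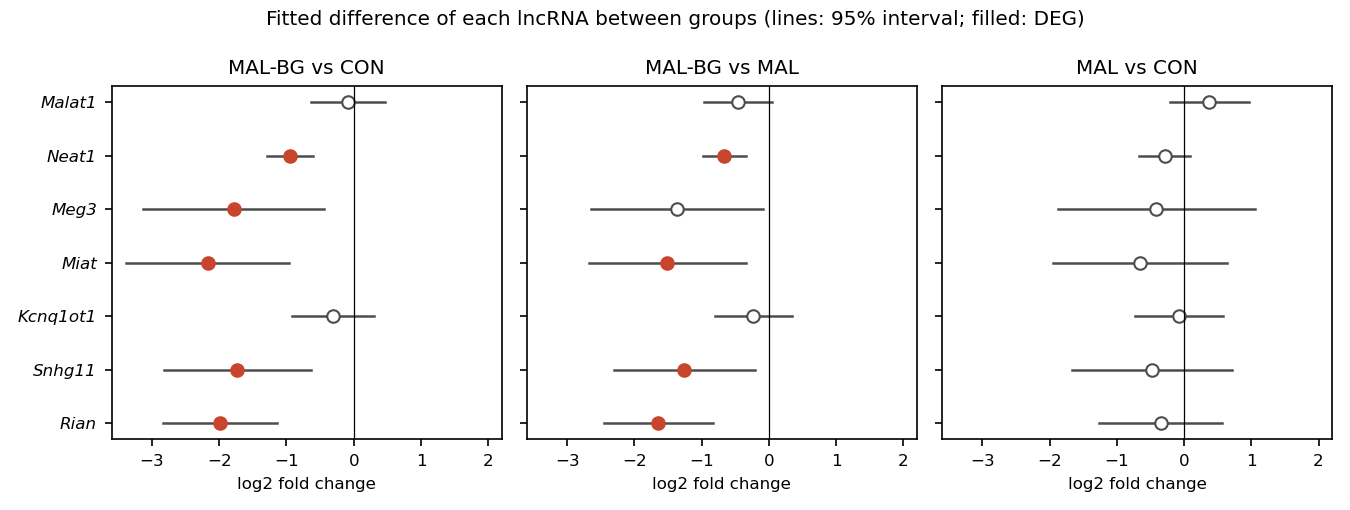
Fitted log2 fold change of each lncRNA in the 3 comparisons, with its 95% interval, filled where it was a DEG. Neat1, Miat, Snhg11, and Rian were lower in MAL-BG in both comparisons, Meg3 passed only against CON, and the intervals of Malat1 and Kcnq1ot1 included 0 in all 3.

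Neat1 was the lncRNA for which MAL-BG was fully apart from both other groups. It is a single block of 20771 exonic bases on the reverse strand of chromosome 19 (5824708 to 5845480, GRCm38.p6), 22035 bases from Malat1. CON libraries 1 to 4 had 1182, 1349, 873, and 816 CPM. MAL libraries 1 to 5 had 738, 827, 894, 925, and 930.9 CPM, and the 7 MAL-BG libraries had 399.7 at the lowest, 579 at the median, and 681 at the highest. All 7 MAL-BG libraries were below all 9 others, which held for 6.36% of the genes tested, while 4 of 5 MAL libraries lay inside the CON range. The log2 fold change was -0.95 against CON (SE 0.163, edgeR adjusted p = 0.000292) and -0.66 against MAL (SE 0.154, adjusted p = 0.0027). With scaling by mean log2 CPM alone the log2 fold change was -0.72 against CON, still a DEG, and -0.45 against MAL (adjusted p = 0.0315), under the fold threshold. When the fit was also corrected for length and GC content it was -0.29 against CON (adjusted p = 0.209) and -0.01 against MAL (adjusted p = 0.972). Without MAL-BG library 1 the change against MAL was -0.57, under the fold threshold. The locus gives a short polyadenylated transcript and a long one. The table holds 1 count for both, so which of them was lower cannot be told. The libraries were made from poly(A) RNA, and how well each transcript was captured was not tested.

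No paraspeckle protein was a lower DEG alongside Neat1. The 13 tested had a median log2 fold change of 0.25 against CON and 0.28 against MAL. It was 0.49 in both under scaling by mean log2 CPM, and 0.48 and 0.59 with length and GC offsets. With TMM, 2 were higher and none was lower against CON, and 1 was higher and none was lower against MAL. The higher ones were Taf15, an RNA-binding protein, at 0.66 against CON (SE 0.229, edgeR adjusted p = 0.0262) and 0.66 against MAL (adjusted p = 0.0192), and Nudt21, a subunit of the cleavage factor for mRNA 3′ ends, at 0.70 against CON (SE 0.215, adjusted p = 0.0145). Sfpq and Nono, which Neat1 binds to build the paraspeckle, had log2 fold changes of -0.10 and -0.12 against CON (adjusted p = 0.497 and 0.453), and both were chosen after their values were seen. The genes nearest to Neat1 in their centred log2 CPM over all libraries were Gadd45g, Midn, and Eme2, with root mean square differences of 0.184, 0.186, and 0.196, where Neat1 itself varied by 0.474 about its mean. The early response genes, 13 transcription factor and feedback genes that dissociation is known to induce, had 6 lower against CON and 9 lower and 1 higher against MAL, and their summed level was 23304 to 46401 CPM in CON, 24688 to 52047 CPM in MAL, and 12707 to 35783 CPM in MAL-BG. The part of these genes in the Neat1 result was not tested.

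Malat1 did not differ between groups by the test, but MAL-BG libraries fell apart into a low and a high set. It is a block of 6983 exonic bases on the reverse strand of chromosome 19 (5795690 to 5802672). CON libraries 1 to 4 had 6636, 5468, 4693, and 6785 CPM, and MAL libraries 1 to 5 had 7894, 7086, 7663, 7669, and 7886 CPM. MAL-BG libraries 1, 5, and 6 had 3589, 2937, and 3323 CPM, and MAL-BG libraries 2, 3, 4, and 7 had 7887, 7078, 7478, and 6606 CPM. All 5 MAL libraries were above all 4 CON libraries. The log2 fold change of 0.37 did not pass the test (95% interval -0.21 to 0.96, edgeR adjusted p = 0.999). How many of all genes tested are apart in this way was not counted. In contrast, 3 MAL-BG libraries were below every other library and the other 4 lay within or above the CON range. The log2 fold change was -0.09 against CON (95% interval -0.63 to 0.46, edgeR adjusted p = 0.809) and -0.46 against MAL (95% interval -0.97 to 0.05, adjusted p = 0.129), and both of these intervals included 0. The coefficient of variation was 39.1% in MAL-BG, 16.9% in CON, and 4.31% in MAL.

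The 3 MAL-BG libraries low in Malat1 were also the 3 with the most counts, 17323278 to 18705202. Malat1 was low there in raw counts too, at 60875, 54155, and 55913, beside 89032 to 120078 in MAL-BG libraries 2, 3, 4, and 7. The microglia markers of the 3 low libraries summed to 44698 to 60157 CPM, and those of MAL-BG libraries 2, 3, 4, and 7 to 43153 to 57653 CPM. Kcnq1ot1 was lowest in the 3 libraries low in Malat1. Among nuclear speckle proteins, 1 of 18 was lower against each group and none was higher, with a median log2 fold change of 0.05 against CON and -0.02 against MAL. The latter turned to 0.20 under scaling by mean log2 CPM. The lower one was Prpf4b, a kinase of splicing factors, at -0.90 against CON (SE 0.153, edgeR adjusted p = 0.000286). Ankhd1, Itsn2, and Hivep2 were the genes nearest to Malat1 over all libraries (root mean square differences of 0.246, 0.247, and 0.248 on the log2 scale).

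The libraries were made from poly(A) RNA, and Malat1 is known to end not in an added poly(A) tail but in a stretch of A bases that the genome encodes. This stretch is shown because it is the part of Malat1 through which poly(A) capture could hold it. The sequence is bases 6592 to 6691 of the transcript Malat1-201 (GENCODE annotation of GRCm38), with the A-rich tract of 18 bases in capitals.
Malat1 3′ region: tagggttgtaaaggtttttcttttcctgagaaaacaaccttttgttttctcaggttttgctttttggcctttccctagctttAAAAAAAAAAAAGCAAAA
Whether capture through this tract differed between libraries was not tested.

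Rian was the lncRNA with the steadiest fall. Its locus, on the forward strand of chromosome 12 (109603945 to 109661716), hosts 13 annotated small nucleolar RNAs and 3 miRNA hairpins. In CON, libraries 1 to 4 had 5.45, 11.8, 20.3, and 13.2 CPM, and MAL libraries 1 to 5 had 9.62, 14.4, 7.66, 6.20, and 11.9 CPM. MAL-BG libraries had 1.13 at the lowest, 2.24 at the median, and 6.69 at the highest. In MAL-BG, 6 of 7 libraries were below every CON and MAL library, and library 3 was above CON library 1 and MAL library 4. The log2 fold change was -1.99 against CON (SE 0.402, edgeR adjusted p = 0.000981) and -1.65 against MAL (SE 0.385, adjusted p = 0.00277), and Rian was a DEG in both under all 27 alternatives. The genes nearest to it were Pdzd4, Camk2n2, an inhibitor of the neuronal kinase CaMKII, and Tmem56, at 0.259, 0.267, and 0.296.

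Meg3 lies 32215 bases before Rian on the same strand (chromosome 12, 109540996 to 109571729) and was lower with far more spread. CON libraries 1 to 4 had 42.3, 90.1, 118, and 169.6 CPM. MAL libraries 1 to 5 had 27.2, 44.0, 25.4, 26.0, and 272 CPM, and MAL-BG libraries had 10.5 at the lowest, 22.0 at the median, and 77.3 at the highest. Thus 4 of 5 MAL libraries overlapped MAL-BG, and MAL library 5 was the highest of all. On the log2 scale Meg3 differed by -1.78 from CON (SE 0.637, edgeR adjusted p = 0.0309) and by -1.37 from MAL (SE 0.606, adjusted p = 0.0755). The call against CON was lost without CON library 3 (adjusted p = 0.0603) or 4 (0.102), or MAL-BG library 1 (0.0608), 2 (0.0513), or 7 (0.0603), and with length and GC offsets (log2 fold change -1.15, adjusted p = 0.104). Without MAL library 5 the change against MAL was close to 0, at -0.02 on the log2 scale, and without MAL-BG library 3 it was -1.81 (adjusted p = 0.0201).

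The promoters of Meg3 and Rian are shown because the RNAs are neighbours in 1 imprinted domain and were both lower against CON. Each is the 250 bases before and 50 bases after the RefSeq start, forward strand of GRCm38.p6, at chr12:109540746-109541045 and chr12:109603695-109603994. Capitals mark, in order, a CCAAT box (CCAAT), a cAMP response element (TGACGTCA), and overlapping TATA boxes (TATAAA) searched on both strands.
Meg3 promoter: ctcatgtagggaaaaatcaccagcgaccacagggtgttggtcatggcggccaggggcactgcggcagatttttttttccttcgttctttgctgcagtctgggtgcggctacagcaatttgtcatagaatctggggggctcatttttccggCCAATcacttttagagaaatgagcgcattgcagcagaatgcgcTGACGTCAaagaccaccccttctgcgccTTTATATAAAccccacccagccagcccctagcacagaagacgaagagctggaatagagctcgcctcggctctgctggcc
Rian promoter: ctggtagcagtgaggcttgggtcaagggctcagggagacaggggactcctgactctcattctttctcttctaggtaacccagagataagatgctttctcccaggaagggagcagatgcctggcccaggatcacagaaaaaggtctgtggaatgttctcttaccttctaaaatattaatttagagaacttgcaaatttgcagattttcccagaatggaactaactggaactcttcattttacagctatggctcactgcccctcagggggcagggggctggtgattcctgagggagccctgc
The response element starts 57 bases before the start of Meg3 and occurs in 1.79% of the 32851 promoters of the table, while a CCAAT box occurs in 37.4% and a TATA box in 13.6%. The Rian window held none of these, nor a GC box (GGGCGG), an AP-1 site (TGANTCA), or an E-box (CACGTG), which 35.7%, 7.81%, and 7.15% of promoters hold. Meg3 has 13 CpG in this window and Rian 0, where the median promoter has 7. RefSeq also gives Meg3 another start, at chr12:109545148-109545447, with 1 CpG.

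Little else of the domain could be read. Of 5 further genes, Dlk1 alone passed the filter, with a log2 fold change of 1.61 against CON (SE 1.24, edgeR adjusted p = 0.306). Dlk1 was at 1.74 ± 2.78 CPM in CON and 5.36 ± 10.6 CPM in MAL-BG (SD). The 5 genes summed to 29.6 CPM in MAL-BG library 3, and the next highest library, CON library 3, had 6.07 CPM. The direction for Dlk1 thus rested on 1 library. Mirg, the host of a miRNA cluster, was too low to test. Imprinted genes of other domains were lower as a group: 10 of 11 tested were DEGs against CON and against MAL, all lower (medians -1.74 and -1.59). Peg3, a zinc finger protein, was at -3.81 against CON (SE 0.424, edgeR adjusted p = 1.15e-05). Igf2, a growth factor that the choroid plexus and meninges make, was at -2.41 (SE 0.434, adjusted p = 0.000425), and Nnat, a small membrane protein of neurons, at -1.998 (SE 0.329, adjusted p = 0.000225). Choroid plexus markers moved with them, 14 of 14 lower against CON, with summed levels of 14162 to 54894 CPM in CON, 6580 to 43183 CPM in MAL, and 1792 to 16759 CPM in MAL-BG. Their part in the result was not tested.

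Kcnq1ot1 did not pass the test in any comparison. It is read from the reverse strand of chromosome 7 (143213111 to 143296547), antisense to Kcnq1. In CON, libraries 1 to 4 had 71.0, 99.5, 62.3, and 47.9 CPM, and MAL libraries 1 to 5 had 70.1, 61.1, 59.9, 52.8, and 88.3 CPM. MAL-BG libraries 1, 5, and 6 had 29.5, 31.2, and 41.2 CPM, and libraries 2, 3, 4, and 7 had 100.8, 73.3, 66.0, and 53.9 CPM. The same 3 libraries as for Malat1 were below all others, and the rest overlapped both groups. The log2 fold change was -0.31 against CON (95% interval -0.92 to 0.30, edgeR adjusted p = 0.397) and -0.23 against MAL (-0.81 to 0.34, adjusted p = 0.501), and with length and GC offsets it was 0.19 and 0.33. Malat1 was the 38th nearest of 14564 genes to Kcnq1ot1, at 0.364, and its nearest were Amer1, Uvssa, and Ttc3, at 0.229, 0.235, and 0.279.

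Genes around Kcnq1ot1 moved in both directions. Of 10 tested, 2 were higher and 1 was lower against CON, and 4 were higher and 1 was lower against MAL (medians 0.10 and 0.13). Cdkn1c, a cell cycle inhibitor that is a known target of this silencing, was at -0.74 against CON (SE 0.321, edgeR adjusted p = 0.0685). Kcnq1, a potassium channel subunit, was at 0.80 against CON (adjusted p = 0.104) and 0.99 against MAL (SE 0.365, adjusted p = 0.0356). Tspan32, a tetraspanin of blood cells, was at 1.36 against CON (adjusted p = 0.000662), and Cd81, another tetraspanin, at 0.65 (adjusted p = 0.0112). Trpm5, a cation channel, was at -3.18 (adjusted p = 0.000522). Kcnq1 and Kcnq1ot1 share 121 exonic bases on opposite strands, and whether the counting used strand is not given in the sources used here, so their reads there cannot be told apart. Meg3, Miat, and Malat1 share 1228, 2260, and 453 exonic bases with opposite-strand genes that, unlike Kcnq1, have no row of counts. Whether reads of those genes were counted for these lncRNAs cannot be told either.

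Miat was scarce and lower in MAL-BG. It lies on the reverse strand of chromosome 5 (112213228 to 112228948). In CON, libraries 1 to 4 had 3.07, 1.21, 4.26, and 10.98 CPM, and MAL libraries 1 to 5 had 3.83, 1.86, 3.01, 3.06, and 3.74 CPM. MAL-BG libraries had 0.238 at the lowest, 0.759 at the median, and 3.26 at the highest, from 4 to 44 counts. In 5 of 7 MAL-BG libraries Miat was below every other library, and library 7 was within the range of CON and MAL. On the log2 scale Miat differed by -2.17 from CON (SE 0.574, edgeR adjusted p = 0.0059) and by -1.51 from MAL (SE 0.553, adjusted p = 0.0346). Without CON library 4 the change against CON was -1.41 (adjusted p = 0.0613), and the call against MAL was lost in 9 of 27 alternatives, without MAL library 1, 3, or 5 or MAL-BG library 1, 2, or 5 among them (adjusted p = 0.0531 to 0.0682).

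Miat is known for tandem copies of TACTAAC, the branch point sequence that the splicing factor Sf1 binds. The stretch below is shown because those copies set Miat apart by sequence. It is bases 4941 to 5090 of Miat-205 (GENCODE annotation of GRCm38), with 3 of the 6 copies of this 9163-base transcript in capitals.
Miat repeats: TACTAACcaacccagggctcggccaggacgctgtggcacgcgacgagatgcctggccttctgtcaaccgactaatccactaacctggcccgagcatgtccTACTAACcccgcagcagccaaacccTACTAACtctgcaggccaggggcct
That is 0.655 copies per kilobase, where Neat1 and Kcnq1ot1 have 0.048 and 0.043 and the other 4 have 0. Of 3 splicing factors known to bind Miat, Sf1 was at -0.02 against CON (edgeR adjusted p = 0.915) and Qk at 0.42 (adjusted p = 0.0167, under the fold threshold), while Celf3, which is found mainly in neurons, was at -3.35 (SE 0.58, adjusted p = 0.000326).

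Snhg11 was lower in MAL-BG, and its difference from MAL was close to the threshold. It lies on the forward strand of chromosome 2 (158375713 to 158386474) and is typed as an lncRNA by RefSeq and as protein coding by GENCODE. CON libraries 1 to 4 had 3.15, 8.16, 6.54, and 14.004 CPM, and MAL libraries 1 to 5 had 2.72, 1.94, 2.84, 4.27, and 16.8 CPM. MAL-BG libraries had 1.19 at the lowest, 2.28 at the median, and 3.52 at the highest. Only 2 of 7 MAL-BG libraries were below every other library, and 3 of 5 MAL libraries lay inside the MAL-BG range. The log2 fold change was -1.73 against CON (SE 0.519, edgeR adjusted p = 0.0124) and -1.26 against MAL (SE 0.497, adjusted p = 0.0489). Without CON library 4 it was -1.33 against CON (adjusted p = 0.0691), and without MAL library 5 it was -0.31 against MAL (adjusted p = 0.546). The call against MAL was lost in 16 of 27 alternatives, among them RLE scaling, no filter on low counts, thinning, a fit of the compared groups only, and leaving out CON library 2 or 3 or any MAL-BG library but 3. Other hosts of small nucleolar RNAs gave 3 higher and 2 lower of 19 against CON (median 0.23) and 2 higher and none lower against MAL (median 0.18). Snhg17 was at 0.78 (SE 0.254, edgeR adjusted p = 0.0194) and Snhg3, chosen after its value was seen, at -0.67 (SE 0.243, adjusted p = 0.0329) against CON.

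**Figure D3:**
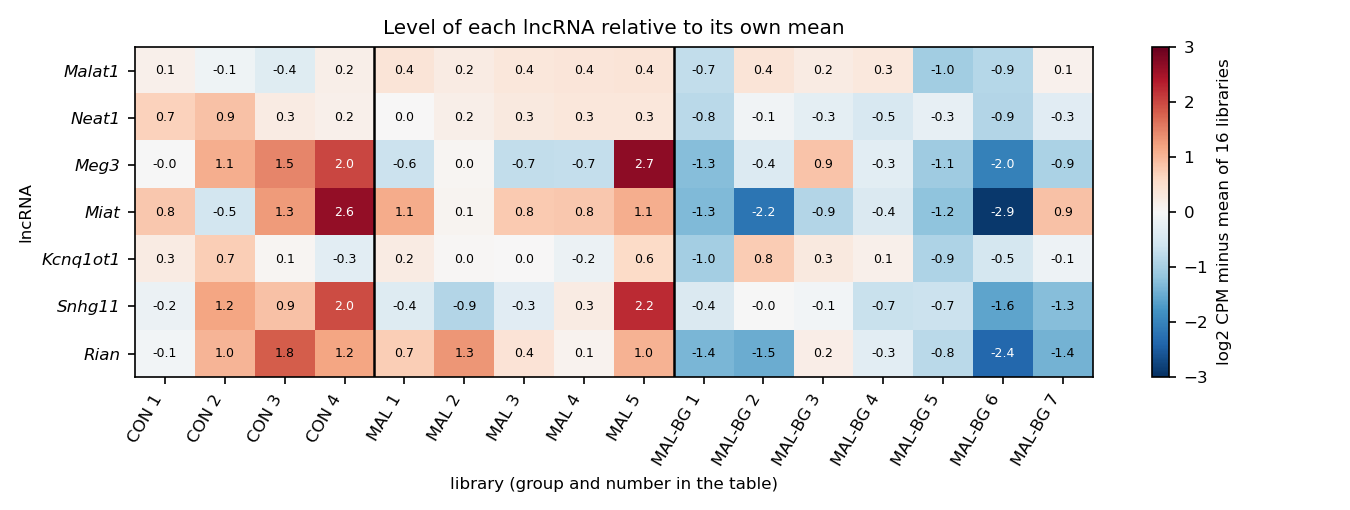
log2 CPM of each lncRNA minus its mean over all libraries, by library, with group borders drawn as lines. Meg3 and Snhg11 are highest in MAL library 5 and CON library 4, and Malat1 and Kcnq1ot1 share their 3 lowest libraries, MAL-BG 1, 5, and 6.

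Of the 4 neuronal lncRNAs, Meg3 and Snhg11 were the most alike across libraries, each the 4th nearest of 14564 genes to the other (0.559). Meg3 and Snhg11 were both highest in MAL library 5, where Rian (11.9 CPM) and Miat (3.74 CPM) were inside the range of their group. The genes nearest to Meg3 were Ntng1, an axon guidance ligand, Grin2b, a subunit of the NMDA receptor, and Ryr2, a calcium release channel (0.466, 0.557, and 0.558), and among those nearest to Snhg11 were Gria2, a subunit of the AMPA receptor, and Otud7a (0.532 and 0.548). Those nearest to Miat were farther away, with Pamr1 at 0.604, Osbpl6 at 0.613, and Cd109 at 0.641. Meg3 and Rian, in the same domain, differed by 0.813. Rian was the 118th nearest of these genes to Meg3, but Meg3 was only the 1863rd nearest to Rian.

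The neuron markers moved with these lncRNAs. Of 27 tested, 24 were lower and 1 was higher against CON (median log2 fold change -2.23), and 21 were lower and 1 was higher against MAL (median -1.91). Slc17a7, the vesicular glutamate transporter of cortical neurons, was at -4.93 against CON (SE 0.499, edgeR adjusted p = 6.15e-06) and Gad2, which makes GABA, at -4.09 (SE 0.715, adjusted p = 0.000341). The summed markers were 802 CPM in MAL library 5, the highest of its group, and 698 CPM in CON library 4, below the 987 CPM of CON library 3. Astrocyte markers were lower too, 5 of 10 against CON (median -1.52) and 6 of 10 against MAL (median -1.44), whereas 10 of 16 microglia markers were higher in both (medians 0.77 and 0.77). Ependymal markers had 5 lower and none higher of 6 against CON, oligodendrocyte markers 2 lower and 3 higher of 15, and endothelial markers none lower and 2 higher of 9. The part of neuronal RNA in the lncRNA results was not tested. Neutrophil markers were higher, 11 of 11 in both comparisons, with sums of 55.6 to 209 CPM in CON, 45.1 to 334 CPM in MAL, and 197 to 13739 CPM in MAL-BG. The highest sum was in MAL-BG library 5, and that of MAL-BG library 6 lay inside the range of the other groups. Without MAL-BG library 5 the same 5 lncRNAs were called against CON, and Neat1 and Rian against MAL.

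Other lncRNAs were grouped by where they are known to be expressed. Of 6 tested neural lncRNAs, 5 were lower against CON and 5 against MAL (medians -2.04 and -1.78), among them Six3os1 at -3.22 (SE 0.659, edgeR adjusted p = 0.00107) and Rmst at -3.17 (SE 0.540, adjusted p = 0.000286). 1 lower row, 1700020I14Rik (-0.90 and -0.84), is in this list and in the next. Of 12 widely expressed lncRNAs, 3 were lower and 2 higher against CON (median -0.35), and 5 were lower and 1 higher against MAL (median -0.31). With length and GC offsets these medians were -0.028 and -0.033. Xist, which coats the inactive X chromosome, was at 1364 CPM in CON and 636 CPM in MAL-BG (log2 fold change -1.10, SE 0.216, adjusted p = 0.000791). Firre, a nuclear lncRNA of the X chromosome, was at -1.57 (SE 0.174, adjusted p = 1.08e-05), and Pvt1, next to Myc, was higher at 0.92 (SE 0.280, adjusted p = 0.0135).

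**Figure D4:**
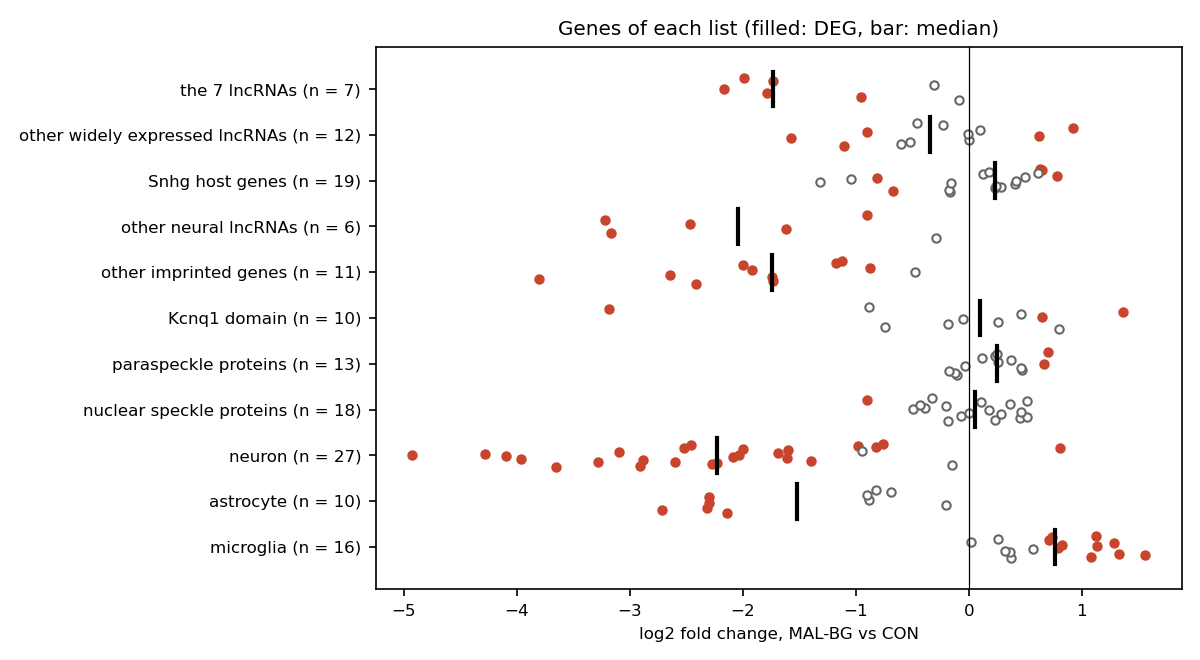
Log2 fold change of MAL-BG against CON for the tested genes of each list, filled where a gene was a DEG, with the list median as a bar. The medians were -2.04 for other neural lncRNAs, -1.74 for other imprinted genes, and -2.23 for neuron markers, beside 0.25 for paraspeckle proteins, 0.05 for nuclear speckle proteins, and 0.77 for microglia markers.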

How the data were processed

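Per the labels and the methods of the study, the authors built strand-specific libraries from poly(A) RNA, mapped read pairs with STAR to GRCm38.p6, and obtained gene-level counts from HTSeq. The deposited values are these raw counts, with no normalization. The annotation and strand setting of the counting are not given in the sources used here. Testing was limited to the 14565 genes above 10 counts in 4 or more libraries. Library sizes were recomputed from these genes and TMM-scaled, and a joint fit of the 3 groups was tested by edgeR 4.0.16 (quasi-likelihood, R 4.3.3), with Benjamini-Hochberg adjustment over all genes tested in each comparison. Each SE was the absolute log2 fold change divided by the square root of the F statistic of the edgeR test. The 95% intervals were built from this SE, so both restate the unadjusted p and are no separate estimate. CPM values carry no prior count, and log2 CPM for likeness used a prior count of 2. The batch term of the study was not fitted, since no source used here ties a column to a batch, so the part of batch was not tested. Likeness was the root mean square difference of centred log2 CPM over all libraries, and the 3 nearest genes were taken. Some genes that these rules name are left out of the text. From each list of other genes, names were taken from the 4 tested genes with the largest absolute log2 fold change against CON, and from the imprinted domain of a member. The lncRNAs and lists were chosen with earlier results of these data known. Positions, exons, and sequences came from RefSeq and GENCODE for GRCm38, and Neat1 had no entry in the promoter table. p-values rest on the spread between the mice of a group. Per the methods of the study, mice shared cages, and cage was not fitted, so the part of cage was not tested. The test was also run on simulated data, and no result given here rests on that check. Alternatives were other scalings and filters, DESeq2 1.42.0, fits of the compared groups only, no fold threshold, libraries thinned to 10312703 counts, corrections for length and GC content, and leaving out libraries.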

Additional observations from a re-analysis of the deposited data

Results flagged for a closer look

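Each lncRNA was checked in each group for a library far from the rest of its group by Dixon's test. The test flags about 1 in 20 groups by chance if values are normally distributed. It was run on CPM without a log, and that rate does not hold for skewed values. Of 21 sets of values, 5 were flagged. Meg3 was at 272 CPM in MAL library 5, where the other 4 MAL libraries had 25.4 to 44.0 CPM, and Snhg11 was at 16.8 CPM in the same library, where the others had 1.94 to 4.27 CPM. Meg3 was also high in MAL-BG library 3, at 77.3 CPM against 10.5 to 34.3 CPM in the others. Miat was at 3.26 CPM in MAL-BG library 7, where the others had 0.238 to 1.31 CPM. Malat1 was at 7086 CPM in MAL library 2, below the 7663 to 7894 CPM of the others, a gap that is small beside the spread of the other groups.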

How the results depend on the processing

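The number of lncRNAs called against CON was 5, and it was 3 with length and GC offsets and mean log2 CPM scaling and 2 to 5 when each library was left out, lowest without CON library 4. Against MAL it was 4, and it was 1 with the offsets, 1 with mean log2 CPM scaling, and 1 to 5 when each library was left out, lowest without MAL-BG library 1, and 2 without MAL library 5 or MAL-BG library 2 or 5. Leaving out CON library 4 and MAL library 5 together, chosen after seeing the data, gave 4 against CON and 2 against MAL. No lncRNA was called between MAL and CON under any of the 27 alternatives run. Malat1 against CON turned to 0.15 with mean log2 CPM scaling, 0.26 with the offsets, and 0.0019 and 0.0080 without MAL-BG library 5 and 6, with a range of -0.20 to 0.0373 when each library was left out. Kcnq1ot1 turned to 0.19 against CON and 0.33 against MAL with the offsets, and between MAL and CON to 0.13 without CON library 2, with -0.35 without CON library 4 and MAL library 5. Miat between MAL and CON turned to 0.12 without CON library 4 (range -0.98 to 0.12) and 0.04 without that library and MAL library 5. The cause was not tested.

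Total DEG counts stayed within 1.5 times, but their split by direction did not hold. There were 4820 DEGs against CON (4048 to 5418 when each library was left out) and 4423 against MAL (3809 to 4877). Of these calls 34.4% and 33.4% were higher in MAL-BG, but 57.8% and 58.3% with mean log2 CPM scaling, where the median of all genes was 0.21 and 0.19, and 59.1% and 58.9% with the offsets. No paired analysis was possible because the running numbers of the columns match no sample title. Standard errors against CON were 0.637 for Meg3, 0.574 for Miat, 0.519 for Snhg11, and 0.402 for Rian.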
